A study of Mus musculus with 12 samples.

Results

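The peak list of Mettl3 knockout (KO) cells holds every stretch of RNA that the authors called enriched in an m6A pull-down (IP) over its input in BV2 cells without Mettl3 under bacterial lipopolysaccharide (LPS). All its rows were taken, with no further choice: 41153 peaks, out of 77835 in the series' pair of lists, the other 36682 belonging to wild-type (WT) cells. BV2 is an established mouse microglial line. The series has 12 libraries in 4 groups of 3 replicates, namely IP and input from Mettl3 KO cells with LPS and IP and input from WT cells with LPS, so LPS is shared by all groups and no unstimulated cells enter. No label states the LPS dose and time, the edit made in Mettl3 or the number of KO clones. The enrichment of a peak is its log2 of IP over input as the authors deposited it, and every adjusted p is theirs. A list is 1 value per peak over the group's libraries, so there is no spread between replicates, no test was made, and the intervals given are 95% Wilson intervals that cover the counting of peaks or genes only. Depth per library is unknown here.

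N6-methyladenosine (m6A) is the commonest internal methyl mark of messenger RNA. A complex of METTL3, METTL14 and adaptors such as WTAP and VIRMA places it co-transcriptionally at many sites, mostly in long exons, around the stop codon and in the 3' untranslated region (UTR). Other enzymes methylate single classes of adenosine: METTL16 acts on U6 small nuclear RNA and on hairpins of the Mat2a 3' UTR, METTL5 and ZCCHC4 act on ribosomal RNA, and PCIF1 methylates an adenosine next to the cap to give m6Am, which m6A antibodies also bind. The lists hold no measure that separates these marks from each other.

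Before the values, sequences are given for miRNA genes with a KO peak and for genes with a peak at their annotated start. Of the 14 microRNA (miRNA) genes with such a peak, 6 were covered from end to end. The libraries are of fragmented polyadenylated RNA, so such a peak is a piece of a transcript at the hairpin and no measure of the mature miRNA. Shown here are the 3 miRNAs whose gene reached 4-fold, and the 5' arms of let-7b and let-7c, which share a seed, from RefSeq (GRCm38.p6), 5' to 3', with the seed (bases 2 to 8) in capitals.

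mmu-miR-6363: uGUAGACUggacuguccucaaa

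mmu-miR-703: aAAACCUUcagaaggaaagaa

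mmu-miR-1896: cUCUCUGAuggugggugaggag

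mmu-let-7b-5p: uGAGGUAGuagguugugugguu

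mmu-let-7c-5p: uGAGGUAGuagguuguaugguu

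Mir6363 stood highest, with a log2 of 3.32 (9.97-fold, adjusted p = 4.49e-17) over chr16:50727132-50727245 on the plus strand, the whole annotated gene. Mir703 followed at a log2 of 2.85 (adjusted p = 4.16e-17) over chr5:98475556-98475655 on the minus strand, and Mir1896 at 2.54, the latter within a peak of 4189 bases that runs past the hairpin on both sides. The WT list gave 3.45, 2.89 and 3.39 for these genes. The 5-letter form of the m6A consensus with a central adenosine, GGACU, was searched on the RNA strand of the 10 hairpins in the RefSeq table. It was found in 2 of them, against 8.16% of all 1005 hairpins, and in the mature sequence of mmu-miR-6363 alone, from base 9. Mirlet7b and Mirlet7c-2, whose mature forms share the seed GAGGUAG, are neighbours on chromosome 15 with no WT peak. Their KO peaks were weak, at a log2 of 0.95 and 0.79 (adjusted p = 0.00204 and 0.0462). The Mirlet7c-2 peak begins 73 bases into a gene of 95 bases and ends 103 bases beyond it. The 5' arm shown for let-7c therefore lies outside that peak. In total the 15 mature sequences found in the table fell into 13 seeds, and 9 of the 14 miRNA genes had a WT peak.

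The other set was 5' UTR peaks that begin exactly at the first base of the annotated gene, where a cap-adjacent adenosine would lie. There were 1146 such peaks, 23.5% of all 5' UTR peaks, with a median log2 of 0.80 against 0.75 for the other 5' UTR peaks. For 322 of them the start equals a RefSeq start of the same symbol, so the first base could be read. Shown are 6 of those at 4-fold or more, which are not a full ranking of the 322. Each is given as 21 bases of the gene's strand, 10 on each side of the first transcribed base, which is in capitals. Stronger peaks at a gene start, such as those of Zfp609 at a log2 of 7.26 and Rsrc1 at 5.20, are not among the 6.

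Pkp4: ggctggcggcGgggcggcggc

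Smc6: ccctctcactGtcggccgggc

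Anks1: gaagtgacgcGccgccaggga

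1810013L24Rik: ggtcgccgcaGaggcgtcgac

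Zfyve1: gctcctccctAgctgggctgc

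Cnnm3: aggcgcgggtGagtggggtag

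Only Zfyve1 among these 6 begins with A. Their peaks stood at a log2 of 4.90 in Pkp4, 3.15 in Smc6, 2.99 in Anks1, 2.90 in 1810013L24Rik, 2.71 in Zfyve1 and 2.61 in Cnnm3. Over the 322 starts, the first base was A in 26.1% (21.6 to 31.1) and G in 54.0% (48.6 to 59.4). Among 2688 other genes of the list whose annotated start also equals a RefSeq start, A made up 29.1% (27.4 to 30.9) and G 49.0%, and over all 32851 start windows of the table A made up 34.4%. The interval of the A share at peaks includes the share among the other genes of the list. Enrichment hardly differed with the first base: the median log2 was 0.83 for the 84 peaks beginning at A and 0.81 for the 174 beginning at G. GGACT was searched on the gene's strand of the first 50 transcribed bases and was present in 4.35% of these windows, 5.06% of the other genes' and 5.76% of all windows. A match of these letters is a description and not a methylated site.

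Enrichment in the KO list was modest for most peaks and high for a few. The median log2 was 0.70 (interquartile range 0.52 to 0.99), or less than 2-fold, the 90th percentile 1.44 and the 99th 2.81. At 2-fold or more there were 9958 peaks, 24.2% (23.8 to 24.6). A peak or gene is called strong from 4-fold (a log2 of 2), which 1618 peaks reached, 3.93% of the list, with 302 at 8-fold and 62 at 16-fold. Peaks were spread over 13031 named genes, of which 3592 had a single peak and 225 had 10 or more. A gene is represented by its strongest peak: the median over genes was 1.07 (0.84 to 1.49), and 1480 genes, 11.4%, were strong. The strong share was 14.0% for genes with 1 peak, 9.32% for those with 2 and 14.4% for those with 7 or more, so it did not simply follow the number of peaks. When each gene was given its mean over peaks instead, 4.73% of genes were strong.

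The size of the enrichment and the authors' adjusted p went together only in part. None of the 3846 peaks with an adjusted p above 0.01, and none of the 5564 between 0.001 and 0.01, was strong, and the strong share was 13.4% among the 6252 peaks at 1e-50 or below. The very highest folds nevertheless lay at middling p: the highest log2 of the list, 7.26, had an adjusted p of 1.52e-09, and the highest among peaks at 1e-50 or below was 5.91. Peaks at 1e-50 or below were also the longest, with a median span of 2227 bases against 225 for those above 0.01. A span counts genome from the first to the last base of a peak, introns included. Over 1000 bases lay 38.9% of peaks, 5.89% of them strong, against 2.68% of the shorter ones.

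**Figure D1:**
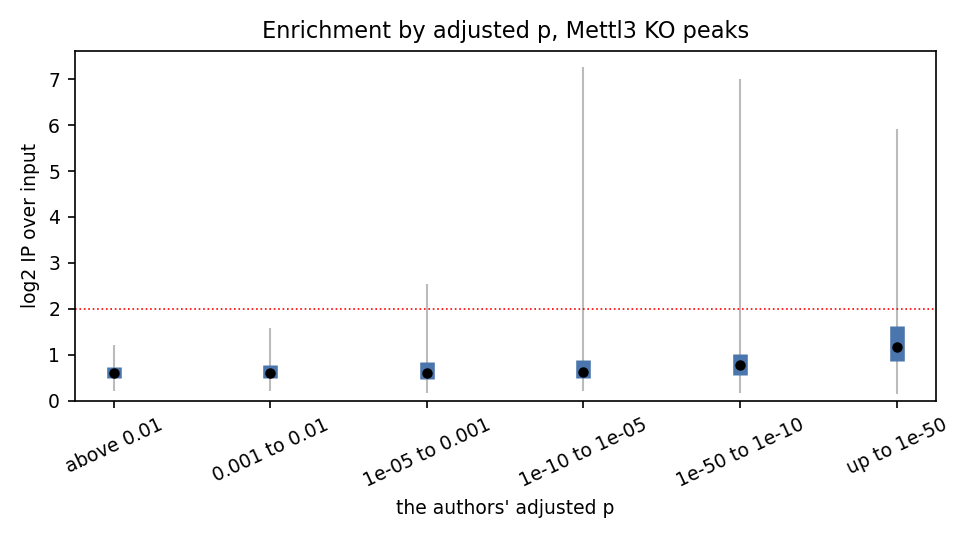
Enrichment of the KO peaks (log2 of IP over input, vertical axis) in 6 classes of the authors' adjusted p (horizontal axis); the dot is the median, the bar the interquartile range, the thin line the lowest to the highest peak, and the dotted line 4-fold. The medians lie between 0.60 and 1.17 and are highest in the class up to 1e-50, while the tallest lines belong to the classes from 1e-50 to 1e-05.

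The largest class of KO peaks was labelled 3' UTR, and within genes peaks with that label were more often the stronger. Each peak carries a single deposited region label, even where it spans several regions. The 3' UTR peak of Jun, for example, covers the whole gene. Of the 3' UTR peaks, 161 begin at the gene start, and 31.1% of these were strong. The part of such peaks in the order of regions was not tested. The 3' UTR class held 21156 peaks, 51.4% of the list, on 10609 genes, with a median log2 of 0.76. Coding exons held 10324 peaks with the lowest median, 0.55, and the lowest strong share, 1.57% (1.35 to 1.83). In 5' UTRs the 4887 peaks had a median of 0.76 and a strong share of 4.75% (4.19 to 5.38). Exons of noncoding RNAs stood apart: their 2638 peaks, 6.41% of the list, had a median of 0.96 and a strong share of 12.5% (11.3 to 13.8), so they made up 20.3% of all strong peaks. The 2014 intron peaks had a median of 0.66 and were short, at a median span of 150 bases.

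**Figure D2:**
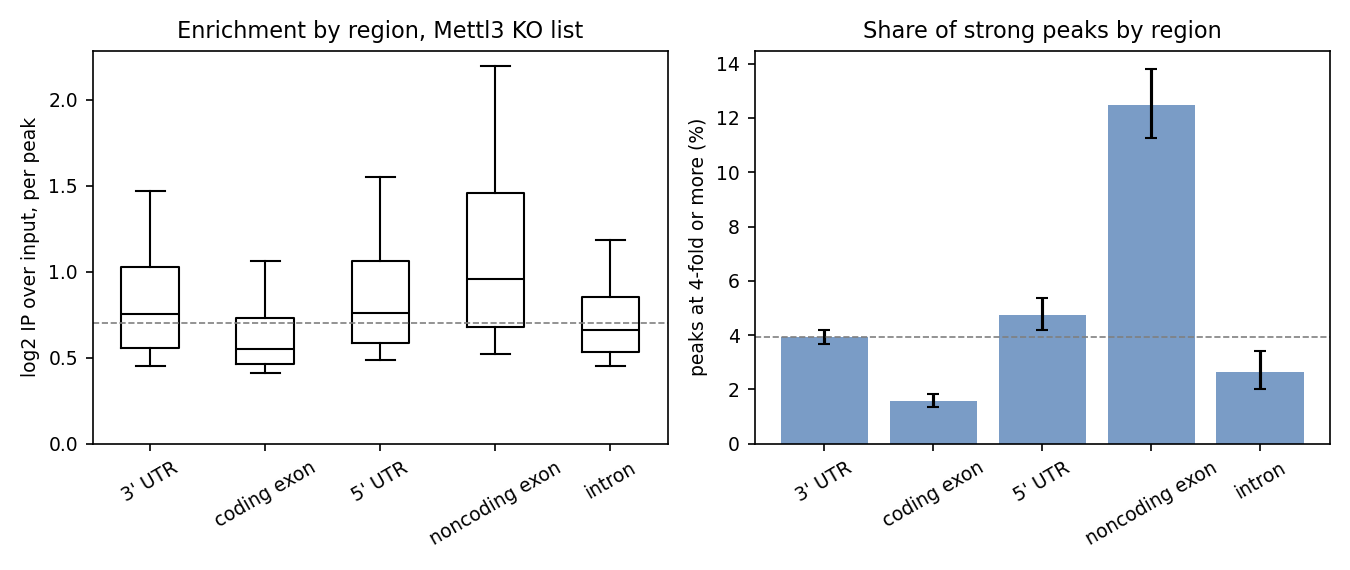
Left, log2 of IP over input for KO peaks by annotated region (box, interquartile range with the median; whiskers, 10th to 90th percentile; dashed line, the median of 0.70 over all peaks). Right, the percent of peaks at 4-fold or more with 95% Wilson intervals, against 3.93% over all peaks (dashed); noncoding exons stand highest at 12.5% and coding exons lowest at 1.57%.

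Length entered this order. Among 3' UTR peaks the strong share was 9.15% over 1000 bases and 1.63% at or below, whereas among coding-exon peaks it was 1.22% and 2.08%. For noncoding exons it was high in both length classes, 18.6% and 10.4%. Comparing regions inside the same gene removes differences between genes: of 5046 genes with a 3' UTR and a coding-exon peak, 3997 (79.2%, 78.1 to 80.3) had the stronger one in the 3' UTR, with a median difference of 0.31 on the log2 scale. The 5' UTR exceeded the coding exons in 69.7% of 2174 genes. The 3' UTR exceeded the 5' UTR in 64.9% of 4176 genes by strongest peak, but in 54.5% by the mean over peaks. In the 2127 genes with peaks in all 3 regions, the strongest was in the 3' UTR in 1187, in the 5' UTR in 691 and in a coding exon in 249.

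Peaks gathered at the annotated ends of genes. Of the 3' UTR peaks, 5950 (28.1%) ended exactly at the last base of the gene, and their median log2 was 0.89 against 0.69 for the other 3' UTR peaks. Those that ended 1 to 100 bases short had a median of 0.89 as well, and those more than 10000 bases away 0.61. The strong share changed little with this distance, from 4.10% at the end to 4.22% between 1000 and 10000 bases, and was lower beyond, at 2.08%. At the other end of the gene, 5' UTR peaks began 1 to 100 bases past the gene start in 27.2% and exactly at it in 23.5%. How the authors' peak caller treats annotated gene ends is not stated, and its part in this was not tested.

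**Figure D3:**
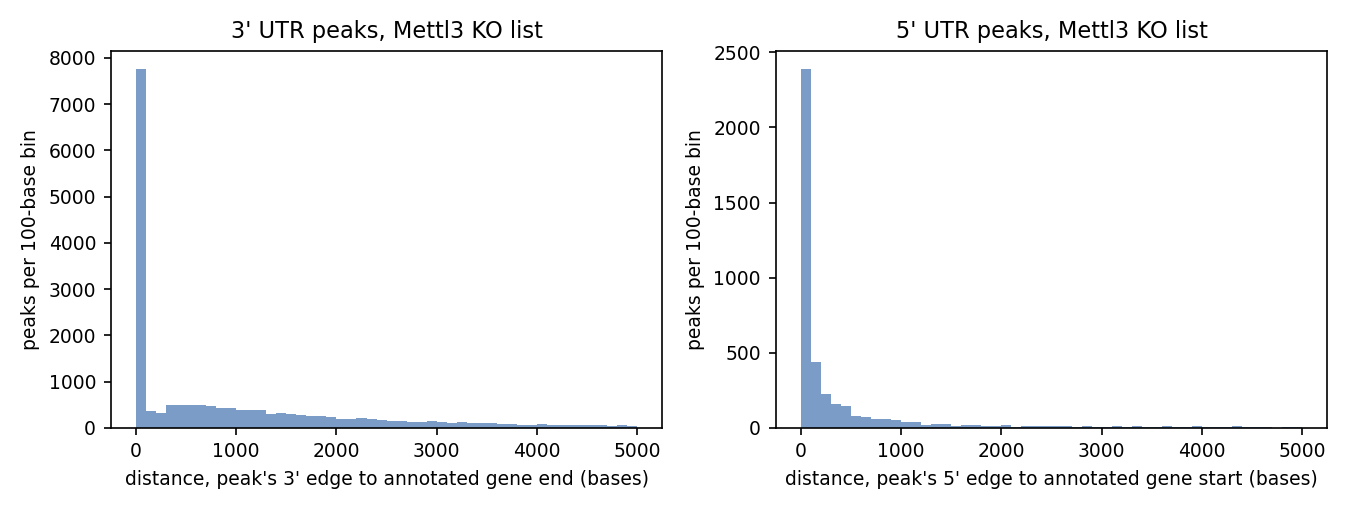
Number of KO peaks per 100-base bin against the distance from the peak's edge to the annotated gene end (3' UTR peaks, left) or gene start (5' UTR peaks, right), in bases. The first bin holds 7764 of the 3' UTR peaks and 2391 of the 5' UTR peaks; 3108 and 734 peaks lie beyond 5000 bases or outside the gene and are not drawn.

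Most strong KO peaks had a counterpart in WT cells at the same place. A counterpart is any WT peak sharing at least 1 base on the same strand. It was found for 53.0% of KO peaks with a log2 below 0.5, 73.2% from 0.5 to 1, 89.0% from 1 to 2 and 92.2% from 2 to 3, but for 83.9% (72.8 to 91.0) of the 62 peaks from 4 upwards. The median spans of these classes were 375, 475, 1000, 1664 and 450 bases, and the part of span in the counterpart share was not tested. By region, the share was highest in 3' UTRs at 81.5%, followed by noncoding exons at 74.7%, 5' UTRs at 73.0%, coding exons at 60.1% and introns at 45.9%. The overlap required set these levels: with a 50% reciprocal overlap, the shares were 55.2% in 3' UTRs, 33.3% in coding exons and 21.9% in introns. Of the strong peaks, 95.7% in 3' UTRs and 79.0% in coding exons had a counterpart of any strength.

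The strongest genes of the KO list were of mixed kinds and included predicted, zinc-finger and olfactory receptor genes. Gm14296, a predicted gene, was highest with a log2 of 7.26 (154-fold, adjusted p = 1.52e-09) in a 3' UTR peak at chr2:176914612-176914786 on the minus strand, and 7.73 in the WT list. Zfp609, a zinc-finger gene, had a log2 of 7.26 (adjusted p = 1.54e-09) in a 5' UTR peak that spans 29771 bases of genome from the gene's first base, against 2.16 for its strongest WT peak. Its other 4 KO peaks lay between 0.35 and 1.50. The olfactory receptor genes Olfr49 and Olfr1238 followed at 7.14 and 6.80, with 3.70 and 7.37 in WT. Olfactory receptor and predicted genes have near-identical copies among which the counting, not described here, may split reads, so their values are uncertain.

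Tm9sf2, which codes for a membrane protein of the endosomal and Golgi system, had the strongest intron peak, a log2 of 7.00 over 375 bases (chr14:122122253-122122627, plus strand, adjusted p = 7.75e-42). No WT peak overlapped it, while a second intron peak of the gene at 2.94 had a WT counterpart. The core histone gene H2bc12 reached 5.49 with no WT peak on the gene, as did the predicted gene Gm14414 at 5.12. How reads shared by related histone genes were counted is not described here, so the H2bc12 value is uncertain too. Zfp574 stood at 5.76 in KO and 1.37 in WT, and Rarg, a retinoic acid receptor gene, at 5.07 and 1.80. Gm42031 showed the same order, 5.41 and 1.51. The other members of the top 20 differed by less between the lists or stood higher in WT: Gm8459 (6.20 in KO, 5.30 in WT), Kctd1 (5.91, 5.74), the splicing-related gene Rsrc1 (5.20, 5.36), Gm5112 (5.09, 5.14), Aebp1 (5.09, 4.94), the teneurin gene Tenm4 (4.999, 7.18), Bloc1s6os (4.99, 5.33), Gm19566 (4.95, 5.17), Pkp4 (4.90, 6.48) and the transcription factor gene Zbtb7b (4.88, 4.35). Each list has its own IP efficiency and scaling, so these pairs stand side by side only. Predicted genes made up 13.5% of the strong genes and 10.04% of all genes.

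The genes with the most peaks were those of giant proteins. Dst, a cytoskeletal linker, carried 44 peaks with a strongest log2 of 2.92 and a mean of 0.78. Macf1, a related linker, carried 25 with a strongest of 4.14 in a coding exon of 225 bases, the kinesin gene Stard9 23 with 1.55, the nuclear envelope linker Syne1 22 with 3.06, and the transcription factor gene Zfhx3 21 with 2.19. Their means over peaks were alike, from 0.76 to 0.84, close to the 0.81 of all genes. In coding exons, Olfr49 was followed by Gapdhs, the sperm form of a glycolytic enzyme, at 4.79, the acid phosphatase gene Acp4 at 4.60, Macf1 and Ahnak2 at 4.09. After Tm9sf2 the strongest intron peaks were those of Klf3 at 4.72, Nxpe3 at 4.58, Lrrc20 at 4.36 and Cep128 at 4.30. Mitochondrial transcripts had 4 peaks, on mt-Nd2, mt-Nd5 and mt-Nd6, with log2 values from 0.48 to 0.94.

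Receptor and signalling pathways of the deposited KEGG column were among those with the highest shares of strong genes, and oxidative phosphorylation and RNA transport among those with the lowest. The column names a pathway for 4540 of the genes, of which 402, 8.85%, were strong, with a median of 1.03. Of the 11010 genes with an entry in the deposited Gene Ontology column, 10.6% were strong. Pathways with at least 30 genes numbered 207, and 122 of them had a strong share above 8.85%. The interval lay wholly above it for 25 pathways and wholly below it for 4. With so many pathways read together, single intervals near the line carry little.

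Neuroactive ligand-receptor interaction stood highest: 19 of 48 genes were strong, 39.6% (27.0 to 53.7), and the median strongest log2 was 1.77, the highest of all 207. Its strong genes included the glutamate receptor subunits Grik5 at 3.99 and Grin3b at 3.03 and the prostaglandin E2 receptor Ptger4 at 2.99. The dopamine receptor Drd1 stood at 2.96. Grik5 carried its enrichment in 2 short 3' UTR peaks of 100 bases each, at 3.99 and 3.85, both with a WT counterpart. Grin3b had no WT peak. For 81.2% of this pathway's genes the strongest peak was in the 3' UTR. In the WT list the strong share of the same pathway was 66.1%. Strong peaks were more frequent in that list as a whole, 11.7% of all WT peaks against 3.93% of KO peaks. The list shares count peaks while the pathway shares count genes, and whether this pathway differs more than others was not tested.

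Jak-STAT signalling held 17 strong genes of 85 (interval 12.9% to 29.7%). They were led by the kinase gene Akt2 at 3.74, the transcription factor gene Myc at 3.402, and the cytokine receptor genes Ifnlr1 at 2.93 and Il20rb at 2.76. Hematopoietic cell lineage held 8 of 39 (20.5%), with the interleukin-6 receptor Il6ra at 2.65, the growth factor Csf1 at 2.57, Cd5 at 2.51 and the integrin Itga4 at 2.45. Regulation of lipolysis held 7 of 30 (23.3%), among them Akt2, the fatty acid binding protein gene Fabp4 at 2.87 and Adrb1 at 2.67. Renin secretion also held 7 of 30, with the potassium channel Kcnj2 at 3.28 first. Calcium signalling held 17 of 86 (19.8%), among them Plcd4 at 2.98 and Ptger1 at 2.96. Inflammatory bowel disease held 6 of 32 (18.8%), led by Jun at 3.65, Maf at 3.63, the LPS receptor Tlr4 at 2.997 and Il21r at 2.63.

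The remaining members of the 10 highest were the Fanconi anemia pathway of DNA crosslink repair with 10 of 50, olfactory transduction with 7 of 35 and morphine addiction with 8 of 42. Fanconi genes were led by Poli at 2.58, Usp1 at 2.55, Ercc1 at 2.42 and Fancm at 2.27, and morphine addiction by the phosphodiesterase Pde4b at 3.47. These pathways share genes. Their 106 places for strong genes were filled by 82 genes, 16 of them in more than 1 pathway, with Adrb1 and Pde1b among those in 4. Over peaks of at most 1000 bases, 5 of the 7 that still had 30 genes stayed above the 3.596% of all KEGG genes, and Fanconi anemia (2.33%) and hematopoietic cell lineage (0%) did not. At 8-fold, where all KEGG genes stood at 1.48%, these 2 (both 0%) and calcium signalling (1.16%) lay below.

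**Figure D4:**
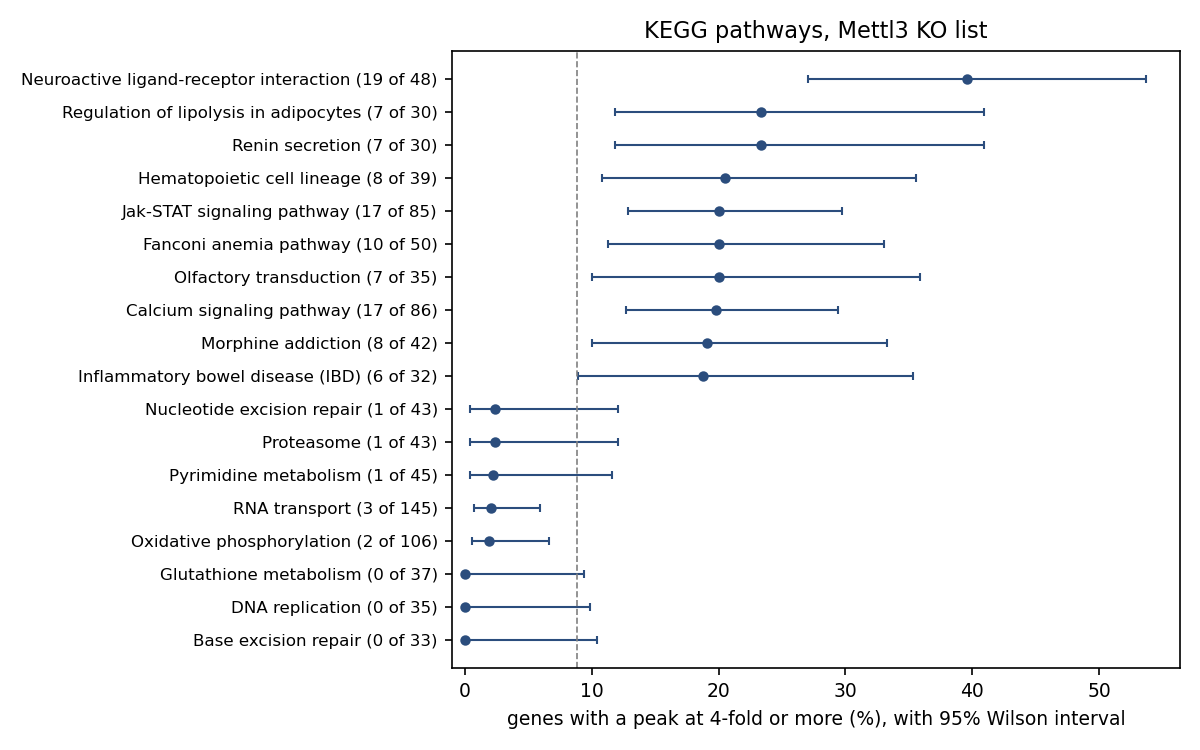
Percent of genes with a peak at 4-fold or more in the 10 highest and 8 lowest KEGG pathways of the KO list, with 95% Wilson intervals; the dashed line is the 8.85% of all genes with a KEGG entry. Neuroactive ligand-receptor interaction lies farthest to the right at 39.6%, and 3 pathways have no such gene.

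At the low end, no gene was strong in base excision repair (0 of 33, upper bound 10.4%), DNA replication (0 of 35, 9.89%) or glutathione metabolism (0 of 37, 9.41%). Oxidative phosphorylation held 2 of 106, 1.89% (0.519 to 6.62), namely the ATP synthase subunit Atp5g1 at 2.58 and the complex I subunit Ndufb2 at 2.29. RNA transport held 3 of 145, 2.07% (0.706 to 5.91), with Rpp38 at 2.24 and Gemin4 at 2.08. Nucleotide excision repair had only Ercc1, pyrimidine metabolism only the thymidine kinase Tk2 at 2.15, and the proteasome only its activator Psme4 at 3.25. Among these 8, the interval excluded 8.85% only for oxidative phosphorylation and RNA transport. Genes enter only with a peak, and the medians, from 0.87 in glutathione metabolism to 1.02 in the proteasome, were below 1.03. With short peaks the medians of the proteasome (0.96) and of oxidative phosphorylation (0.88) were above the 0.87 of all KEGG genes, and by the mean over peaks the latter's was too, at 0.80 against 0.76. None of the 8 lay above the share of all KEGG genes with an adjusted p of at most 0.001, with short peaks or with the mean over peaks, while at 8-fold the proteasome did, through Psme4.

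Other pathways were picked after their values were seen. TNF signalling held 16 strong genes of 88, 18.2% (11.5 to 27.5), and Herpes simplex virus 1 infection 57 of 313, 149 of whose genes bear a Zfp (zinc-finger) symbol. NF-kappa B signalling held 10 of 78 (12.8%, 7.12 to 22.0) and Toll-like receptor signalling 9 of 73 (12.3%, 6.62 to 21.8), intervals that include 8.85%. Lysosome held 4 of 109 and spliceosome 3 of 127, 2.36% (0.807 to 6.72).

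Among the m6A enzymes, the transcripts of the writers had a median above that of all genes. All 8 writer and cofactor genes had KO peaks, with a median of 1.52 and 3 strong genes (37.5% against 11.4% of all genes), Rbm15b at 2.68, Mettl3 at 2.07 and Rbm15 at 2.05. RBM15 and RBM15B bring the complex to RNA. Zc3h13 followed at 1.63, Wtap at 1.40 and Cbll1 at 1.32, and the catalytic partner Mettl14 was lowest at 1.01. The Mettl3 gene carried 6 peaks, 4 of them from 0.48 to 0.77 in the 3' UTR class and 1 at 0.69 in the 5' UTR; a peak measures pull-down over input and not the amount of RNA, and cannot serve as a check of the knockout. Over short peaks the writers' median was 0.88, just under the 0.90 of all genes, and none was strong there or by the mean over peaks.

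The METTL3-independent methyltransferases all had peaks as well, none of them strong. Mettl16 was highest at 1.79, Mettl5 stood at 1.44, Zcchc4 at 1.35, Trmt112 at 1.07, Pcif1 at 0.93 and Mettl4 at 0.77. Mettl16 carried 9 peaks, and its highest was a 3' UTR peak of 100 bases with an adjusted p of only 0.000359. Mat2a, whose product makes the methyl donor S-adenosylmethionine and whose 3' UTR hairpins are the known METTL16 substrate, was the strong gene of its group: the peak covered chr6:72432799-72434548 on the minus strand, up to the annotated end of the gene, with a log2 of 2.71 (adjusted p listed as 0). The strongest Mat2a peak of the WT list stood at 2.75. Its other KO peaks lay between 0.51 and 0.69. The rest of the group was lower, including Ahcyl1 at 1.03, Mthfd1 at 0.996, Ahcy at 0.85, Mat2b at 0.82 and Mtr at 0.65.

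The erasers were weak, with Fto at 0.96 and Alkbh5 at 0.68. Of 15 readers, which bind the mark, 14 had a peak and Ythdf3 alone was strong at 2.16 (7.14% against 11.4% of all genes). Hnrnpa2b1 stood at 1.50, Ythdf2 at 1.49, Ythdc1 at 1.48 and Prrc2a at 1.47, and Fmr1 was lowest at 0.64. Their median of 1.11 lay close to the 1.07 of all genes, and below it with short peaks (0.77 against 0.90) and with the mean over peaks (0.74 against 0.81).

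**Figure D5:**
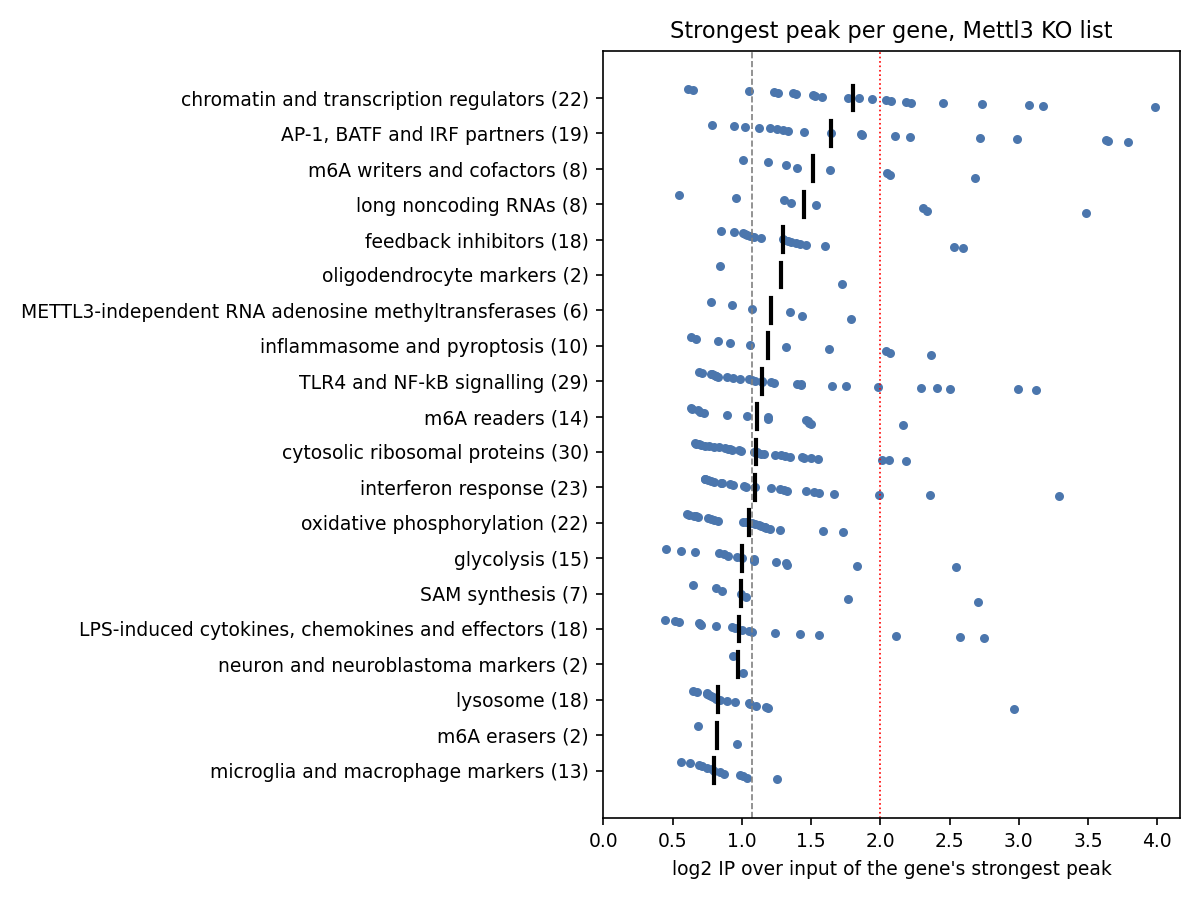
Strongest log2 of IP over input of each gene with a KO peak (points), by gene group, with the number of genes in brackets; black bars are group medians, the dashed line the 1.07 of all genes and the dotted line 4-fold. Chromatin genes and the group of AP-1, BATF and IRF partners have the highest medians, 1.81 and 1.65, and microglia and macrophage markers the lowest at 0.80.

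Genes that carry the LPS signal lay close to the median of all genes, with a few strong ones. Of 31 genes of TLR4 and NF-kappa B signalling, 29 had a peak, with a median of 1.14, and 5 (17.2% against 11.4% of all genes) were strong. They were Tab2, an adaptor of the TAK1 kinase, at 3.13, the LPS receptor Tlr4 at 2.997, Tab1 at 2.50, the deubiquitinating brake Tnfaip3 at 2.41 and the IkB kinase Ikbkb at 2.29. The ligase gene Traf6 lay just below at 1.98. The Tlr4 peak spans 89669 bases of genome, to within 1256 bases of the gene end. Chuk was lowest at 0.69 and Myd88, the main adaptor, stood at 0.78. Over short peaks the group's median lay below that of all genes, 0.81 against 0.90, and none of 24 genes was strong. By the mean over peaks 1 of 29 was, 3.45% against 4.73% of all genes.

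The LPS-induced cytokines and effectors had a median below that of all genes in every setting tried. Of 25 genes 18 had a KO peak, with a median of 0.98 against 1.07, and 3 were strong, 16.7% against 11.4% of all genes: Tnfsf9, a TNF family ligand, at 2.75, the macrophage growth factor Csf1 at 2.57 and Lif at 2.11. So few genes do not set the group apart. Over short peaks 1 of 16 was strong (6.25% against 5.46% of all genes), and by the mean over peaks 1 of 18 (5.56% against 4.73%). At 8-fold the group had 0% against 2.21%. Il1b stood at 1.55 with an adjusted p of 0.000497, Ptgs2 at 1.42, Cxcl2 at 1.24, Nos2 at 1.05 and Tnf at 0.95. Tnf had a 3' UTR peak of 1000 bases at 0.95 and a 5' UTR peak at 0.76, both with WT counterparts. Hmox1 was lowest at 0.45. No KO peak was listed for Il1a, Il6, Il10, Il12b, Csf2, Csf3 or Cxcl1, and the list does not say whether their RNA was present.

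Interferon-response genes had a median of 1.10 over 23 of 28 genes. Xaf1, an interferon-induced gene, led at 3.29 (adjusted p = 2.45e-26) in a 3' UTR peak of 775 bases that no WT peak overlapped, while its strongest WT peak stood at 1.34. Next were the receptor Ifnar2 at 2.36, Ifit2 at 1.99, Cmpk2 at 1.67, Irf3 at 1.56 and Isg15 at 1.52, and Ddx58 and Irf1 were lowest at 0.73. The inflammasome group had 3 strong genes of 10 with a peak (30% against 11.4% of all genes), Nlrp1b at 2.37, Casp8 at 2.07 and Nlrc4 at 2.04. By the mean over peaks none was strong, against 4.73% of all genes, and over short peaks 1 of 9 was (11.1% against 5.46%). Aim2 stood at 1.63, P2rx7 at 1.32, Nlrp3 at 1.06, the pore-former Gsdmd at 0.83 and Nek7 at 0.63. Over short peaks both groups lay below all genes, with medians of 0.83 and 0.73.

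Transcription factors of the AP-1, BATF and Maf families and their IRF partners formed a group that was among the most enriched. Of 20 genes 19 had a peak, and 7 (36.8% against 11.4% of all genes) were strong, with a median of 1.65. Over short peaks 2 of 13 were strong (15.4% against 5.46% of all genes) and by the mean over peaks 4 of 19 (21.1% against 4.73%). The group's median over short peaks, 0.908, was close to the 0.896 of all genes. Fosb stood at 3.79, in a coding-exon peak of 200 bases, and at 3.25 in its 3' UTR. Jun stood at 3.65 in a single peak over chr4:95049034-95052222 that covers the gene from start to end. The others named here were Maf at 3.63, the repressor Jdp2 at 2.72, Irf4 at 2.21 and Atf3 at 2.10, and Fos was lowest at 0.78. Batf, the factor named in the series text, had no KO peak, while its relatives Batf3 and Batf2 stood at 1.87 and 1.21. The feedback inhibitors had a median of 1.30 over 18 genes. Of these 2 were strong (11.1% against 11.4% of all genes), the cytokine-signalling brake Socs5 at 2.59 and the interleukin-10 receptor Il10ra at 2.53. None was strong over short peaks or by the mean over peaks. Next were Tgfb1 at 1.60, the phosphatase Dusp1 at 1.46, Klf4 at 1.42 and Klf2 at 1.39. Zfp36, which destabilises cytokine mRNAs, was lowest at 0.85. The medians of both groups were above those of all genes in every setting tried.

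Chromatin regulators had the highest median, 1.81 over 22 genes, with 9 (40.9% against 11.4% of all genes) strong. These included the remodeller Chd4 at 3.99, the histone methyltransferases Nsd1 at 3.18 and Kmt2d at 2.45, the DNA demethylase Tet3 at 3.07, and the remodeller subunits Arid1b at 2.74 and Arid1a at 2.22, while Dnmt1 was lowest at 0.61. The Chd4 value came from a 5' UTR peak of 633 bases, 75 bases past the gene start, and the other 8 peaks of the gene lay between 0.36 and 0.70. These are genes with many peaks, 9 at the median. By the mean over peaks the group stood at 0.78, below the 0.81 of all genes, with no strong gene against 4.73% of all genes. Over short peaks 3 of 22 were strong (13.6% against 5.46% of all genes).

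Housekeeping groups were nearer to the middle of the list. Ribosomal protein genes had a median of 1.10 over 30 genes, and 3 were strong (10% against 11.4% of all genes), among them Rps23 at 2.19 and Rps19 at 2.01. These genes have many processed copies, so their values are uncertain where reads could be split. Nuclear genes of oxidative phosphorylation had a median of 1.05 and no strong gene among 22, with Uqcrc1 at 1.73 highest. Glycolytic genes had a median of 0.999 and 1 strong gene of 15 (6.67% against 11.4% of all genes). This was Gapdh, at 2.55 in a 450-base peak at the 3' end (chr6:125161715-125162164, adjusted p listed as 0), while its strongest WT peak stood at 1.08. The limit on split reads holds for Gapdh too. Pfkp followed at 1.84, Aldoa at 1.33 and Hk2 at 1.32, and Eno1 was lowest at 0.45. Lysosomal genes were mostly low, with a median of 0.83, though 4 of 18 lay above the median of all genes. Only Tfeb, their transcriptional regulator, was strong, at 2.96 (5.56% against 11.4% of all genes).

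Of 14 long noncoding RNA genes 8 had a peak, with a median of 1.45, and 3 were strong, 37.5% against 11.4% of all genes. None was strong with short peaks or by the mean over peaks, while the median was above that of all genes in every setting tried. Kcnq1ot1, which silences its imprinted neighbours, stood at 3.49 (adjusted p = 4.53e-32) in 1 of its 5 peaks. Neat1, the scaffold of paraspeckles, reached 2.34 in the peak at its 5' end and from 0.50 to 0.76 in its other 5. Xist, the X-inactivation RNA and a known m6A carrier, had 9 peaks, of which those at its ends stood at 2.31 and 2.12. Malat1 was highest at 1.36 in a peak of 2425 bases near its 5' end, with its other 5 peaks between 0.41 and 0.60. In Neat1, Xist and Malat1 alike, the strongest KO peak was the one nearest the annotated gene start.

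The cell type labels were set against marker genes, since the protocol text speaks of neuroblastoma while the samples are labelled as microglial BV2. Of 15 microglia and macrophage markers 13 had a KO peak, with strongest values from 0.56 in Cd68 to 1.26 in Spi1, and P2ry12 and C1qa had none. Of 12 neuron and neuroblastoma markers 2 had a weak peak, Syn1 at 1.01 and Tubb3 at 0.94, and the defining neuroblastoma genes Th and Dbh had none. No peak was listed for the 7 astrocyte or the 8 endothelial and fibroblast markers. Of 8 oligodendrocyte markers only Mbp (1.72) and Cnp (0.84) had one. A peak needs RNA, but a missing peak does not show that RNA was missing. The median of the microglia markers, 0.80, was the lowest of all groups and lay below all genes in every setting tried.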

How the data were processed

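Members and gene lists were chosen with earlier results of these data known. Per the file headers, the authors deposited 1 log2 value per peak, of IP over input, with its p-value and adjusted p-value, a region, a gene and KEGG and GO columns. Per the submitters' processing notes, fastp, FastQC, HISAT2, HOMER, StringTie and edgeR were used, with no role given. The build, the peak caller and any pooling of replicates were not stated, so positions are as deposited, with starts counted from 1. All deposited p-values were below 0.05, and 122 adjusted ones above it. The 83 peaks without a gene name entered peak counts only.

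A gene's value is its strongest peak. Genes were named by a rule: the 20 with the strongest peak, the 5 with most peaks, the strongest and the lowest members of each of 22 lists, the 4 strongest of each extreme pathway and the 5 strongest peaks per region. Other names were chosen after their values were seen. Some genes the rule takes are not reported here. Overlap used bedtools 2.31.1, and the rest Python 3.11.15, pandas 2.3.3 and SciPy 1.17.1. The steps were tested on simulated data. Alternatives were an adjusted p of at most 0.001, peaks of at most 1000 bases, the mean over peaks, 8-fold, merged peaks, 50% reciprocal overlap, strand ignored and a tolerance of 10 bases at gene starts. Start and miRNA sequences are RefSeq's (GRCm38.p6).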

Additional observations from a re-analysis of the deposited data

How the results depend on the processing

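Among the results, the strong share of peaks, 3.93%, was 5.10% with an adjusted p of at most 0.001 and 2.68% over peaks of at most 1000 bases. The 3' UTR share, 51.4%, was 54.4% and 58.4% under the same settings. The strong share of genes, 11.4%, was 12.2%, 5.46% with short peaks and 4.73% when peaks were averaged. Of the 1146 5' UTR peaks at gene starts, 563 were short, and a 10-base tolerance gave 1470. The share with a WT counterpart, 72.9%, was 76.8% with the stricter p, 53.0% with short peaks, 47.3% with a 50% reciprocal overlap and 73.9% with strand ignored. Merging overlapping peaks and the 3' UTR share among strong peaks stayed close to the reported values. Pathways above the share of all KEGG genes numbered 96 to 141, against 122, and lists with a median above all genes 8 to 12, against 12. Of 20 lists with a peak, 19 kept their side of the median of all genes with the stricter p, 11 with short peaks and 14 when peaks were averaged. Of 562 values of named genes, 198 moved and 84 had no value with short peaks, and 433 moved when peaks were averaged. Leaving out replicates could not be run, and depth could not be weighed, since the lists hold no value per library. No paired analysis was possible because each genotype has 1 list, with no column per replicate.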

Other observations

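The Gene Ontology column, looked at after the other results, names a term for 11010 genes of the KO list, of which 10.6% were strong. Of 410 terms with at least 60 genes in the KO list, G protein-coupled receptor activity stood first, with 32 strong genes of 85, 37.6% (28.1 to 48.3), and a median strongest log2 of 1.67. Beside the olfactory receptor genes Olfr49 and Olfr1238, its strong genes included Celsr1 at 3.29, a planar polarity receptor, Gpr157 at 3.06, Adgrf3 at 3.01 and the prostaglandin receptors Ptger4 at 2.99 and Ptger1 at 2.96. Terms for DNA-binding transcription factors followed, such as RNA polymerase II-specific transcription factor activity with 40 of 170, 23.5% (17.8 to 30.4), and sequence-specific DNA binding with 70 of 312, 22.4% (18.2 to 27.4). At the low end, kinetochore had 1 strong gene of 121, 0.826% (0.146 to 4.53), and transport from the endoplasmic reticulum to the Golgi 1 of 90. These terms share genes with each other and with the KEGG pathways.

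Some strong KO peaks had no counterpart at the same place in WT cells. They include the Tm9sf2 intron peak at a log2 of 7.00, the Zfp574 3' UTR peak at 5.76, H2bc12 at 5.49, Gm14414 at 5.12 and the Xaf1 3' UTR peak at 3.29.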
